A study of Mus musculus with 13 samples.

Results

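The CD8 T lymphocytes of mouse spleen are described here against the 5 other leukocyte populations of the series. They were chosen by sample title and make up 2 of the 13 arrays. The others were plasmacytoid dendritic cells (pDCs), CD8α conventional dendritic cells (CD8α cDCs), CD11b cDCs and NK cells with 2 arrays each, and B lymphocytes with 3. Each CD8 T cell array held RNA from the spleen of 1 untreated wild-type C57BL/6 mouse, labelled female and 6 to 8 weeks old. The DC arrays each pooled cells of 10 to 15 C57BL/6 mice, and the label of CD8α cDC replicate 1 gives the same sex and age. The NK cell arrays pooled 6 to 10 mice and, like the remaining DC arrays and B cell replicate 1, had no age or sex in their labels. B cell replicates 1, 2 and 3 came from 3, 2 and 1 mice, and replicates 2 and 3 were labelled as follicular B lymphocytes of 6-week-old males. All spleens were digested with collagenase and the cells were separated magnetically before sorting. The methods name surface markers for the DC and NK cell sorts but none for the CD8 T cells. The CD8 T cells and the B cells were sorted in other experiments than the DCs and NK cells, which shared theirs, and 2 CD8 T cell mice limit the precision of every value below.

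T cells recognise peptides through the T cell receptor, whose variable chains bind the antigen while the CD3 chains carry the signal into the cell. The CD8 coreceptor holds the complex to MHC class I molecules. Inside, kinases phosphorylate the adaptor LAT, which recruits phospholipase C gamma 1 and starts calcium and Ras signalling. NK cells kill with the same granule proteins but without a T cell receptor. Receptors of B cells and many myeloid cells signal through ITAM adaptors with the kinase SYK and phospholipase C gamma 2. Naive CD8 T cells circulate through lymphoid organs with homing receptors and the interleukin 7 receptor, and take up the killing programme once they are activated.

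Expression was read as 1 MAS5 signal per probe set on Affymetrix Mouse Genome 430 2.0 arrays, and signals below 20 were set to 20 before the log2 transformation. Fold changes against a population at this floor are therefore lower bounds. The floor also removes the spread between arrays below it, which lowers the SEs and p-values of such genes. The median signal of an array was 13.5 to 20.8. The CD8 T cell arrays correlated with each other at r = 0.981 over the 9391 genes tested, and on average at 0.834 with NK cells, 0.787 with B cells, 0.693 with pDCs, 0.661 with CD11b cDCs and 0.643 with CD8α cDCs (across genes, which are not independent replicates). Both CD8 T cell arrays were scanned on a day of their own with chips of a lot of their own, so scan day, chip lot and population cannot be told apart. The GAPDH 3' to 5' signal ratio was 3.46 and 3.96 on the CD8 T cell arrays, 23.9 and 11.2 on the NK cell arrays and 3.46 to 6.30 on the rest.

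The sex-linked genes went against the label of the CD8 T cell arrays. Xist, the RNA of the inactive X chromosome, was at 0.963 and 0.877 on the arrays labelled female, whereas the Y-linked Eif2s3y reached 690 and 968, Kdm5d 185 and 159 and Uty 88.1 and 85.9. On the DC arrays Xist lay between 1539 and 4503 and each of these Y-linked genes below 12. B cell replicate 2, labelled male, had 4272 for Xist and 3.65 for Eif2s3y. Uty passed the test of genes highest in CD8 T cells. It is counted in the totals below, but no sex-linked gene is described further.

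The labelled cell type was borne out by its markers. Cd3e, Igfbp4 and Themis, and the coreceptor genes Cd8a and Cd8b1, were at 562 or more on both CD8 T cell arrays. Of the 5 CD4 T cell markers, Cd4 (3.61 and 1.84), Foxp3 and Cd40lg were below 20 on both CD8 T cell arrays, Zbtb7b was at 36.9 and 28.8, and Ctla4 was called highest in CD8 T cells at 55.2 and 106. For the other cell types the markers were summed over each array. The 7 B cell markers had sums of 205 to 274 on the CD8 T cell arrays, against 16730 to 27230 on the B cell arrays. Of these markers 4, including Cr2 with 11.9 on each CD8 T cell array, were below 20 on both, and Cd79b was the highest with 131 and 128. The 8 DC markers summed to 285 to 346 on the CD8 T cell arrays, against 13390 to 15390 on the pDC arrays, with 5 below 20 on both CD8 T cell arrays. The highest of them were Itgax (153 and 115) and Bst2 (135 and 144). The 9 macrophage markers summed to 129 to 225, against 9254 to 10840 in CD11b cDCs, and 6 red cell and platelet markers summed to 72.8 to 152. Of 6 γδ and NKT cell markers listed, 3 had a probe set, and these were below 20 on both CD8 T cell arrays. As Sox13 and Il17a reached at most 32.4 and 22.1 on any array, these values cannot show whether such cells were present. The 6 NK cell markers reached 2012 to 3593, against 39700 to 41530 in NK cells. Klra8 (16.7 and 15.6) and Ncr1 (8.09 and 6.25) were below 20 on both CD8 T cell arrays. The other 4 were not, with Gzma at 2303 and 954, Eomes at 913 and 733, Il18rap at 234 and 254 and Klre1 at 118 and 49.2. The part of other cells in the results was not tested.

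A gene was called highest in CD8 T cells when it exceeded each of the 5 other populations in limma's one-sided tests (adjusted p of the weakest test under 0.05) by a log2 ratio of at least 0.4 to the next population, and lowest in the mirror case. Of the 9391 genes, 234 (2.49%) were called highest and 104 (1.11%) lowest. At least 2-fold separated 185 and 87 of them from the next population, at least 4-fold 63 and 27, and at least 8-fold 29 and 10. For every gene called, the CD8 T cell arrays lay outside the range of the 11 other arrays, which held for 9.62% (above) and 8.51% (below) of all genes tested. The genes called highest had a median log2 ratio of 1.44 and the genes called lowest of -1.48. For 35 genes called highest, every other population averaged below 20. Among the genes called highest, the next population was given as B cells for 101 (43.2%) and NK cells for 79 (33.8%). Over all genes these shares were 21.9 and 27%. Where the other populations all stood at the floor the choice was a tie, so the order of B and NK cells is not read as a result. Among the genes called lowest it was B cells for 35 (33.7%) and NK cells for 26 (25%), against 18.9 and 21.9% of all genes. The probe sets behind the calls differed in kind: 22 of the 234 (9.40%) but 27 of the 104 (26.0%) had identifiers ending in _x_at or _s_at, which can hybridise to related transcripts, against 12.9% of all genes tested. Without CD8 T cell replicate 1 or 2 the genes called highest numbered 139 and 143 and the genes called lowest 53 and 60. Without the pair of NK cell arrays they were 476 and 326. Without the floor of 20, which damps the scatter of low signals, 42 genes were called highest, all of them among the 234, and 118 lowest, and the CD3 genes, Igfbp4 and Lat were among those that lost the call, at log2 ratios no smaller than with the floor (Igfbp4 7.34, Cd3g 4.86, Cd3e 4.78, Cd3d 4.44, Lat 2.71).

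**Figure D1:**
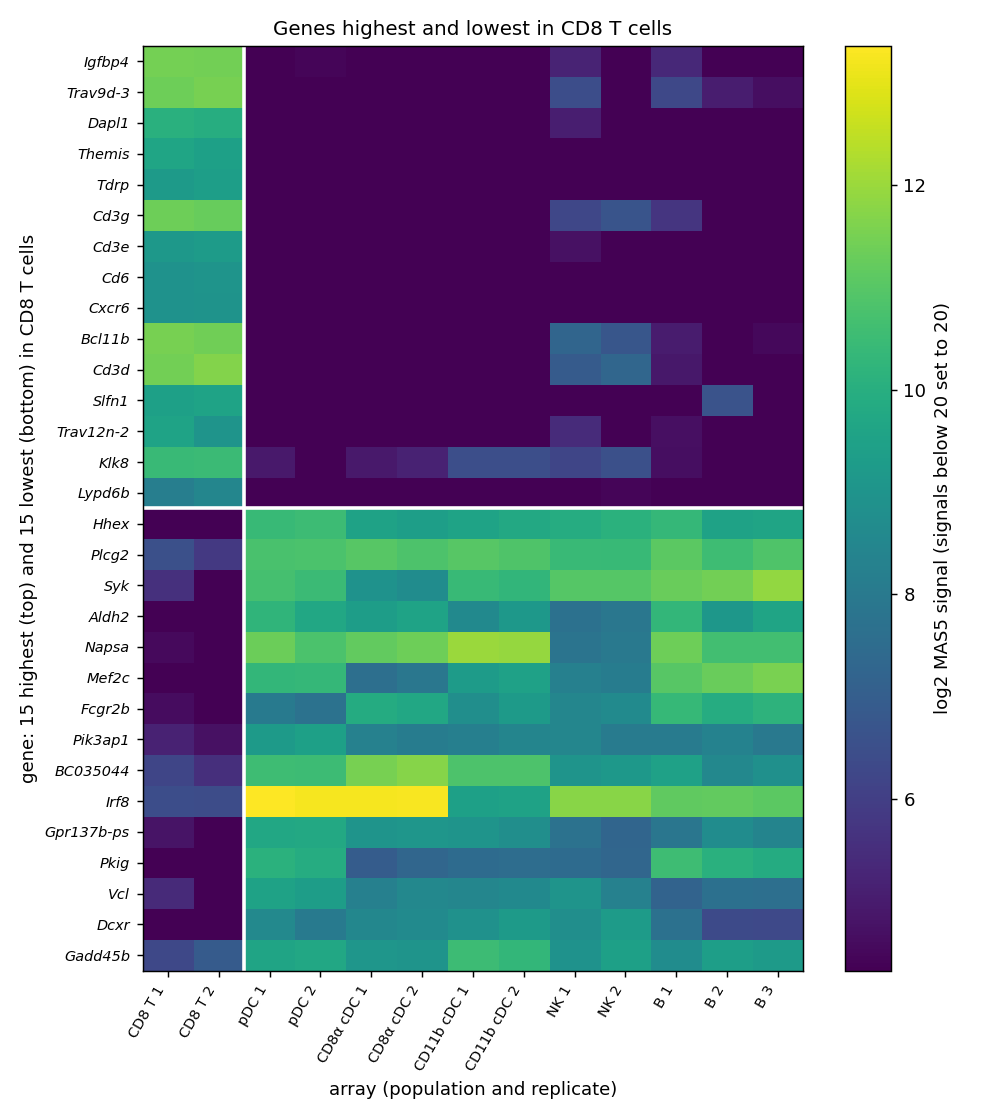
Signal (log2, signals below 20 set to 20) of the 15 genes called highest and the 15 called lowest with the largest log2 ratio to the next population, on the 13 arrays with CD8 T cells on the left. The upper genes are bright only in the CD8 T cell columns, and the lower genes are dark only there.

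Igfbp4, a secreted protein that binds insulin-like growth factors, had the largest ratio of all. Its signals were 2839 and 2741 on the CD8 T cell arrays, against 1.14 to 41.0 on the 11 others, so the groups did not overlap. The log2 difference to NK cells, the next population, was 6.67 ± 0.35 (SE), at least 102-fold (adjusted p = 6.66e-07), and all 5 Igfbp4 probe sets were called. Dapl1, a gene known from quiescent T cells, followed the same pattern with 1058 and 994 on the CD8 T cell arrays and 1.49 to 33.6 elsewhere (log2 ratio 5.31 ± 0.21). Themis encodes a protein that associates with the T cell receptor signalling complex in thymocytes and T cells. It had 793 and 705 in CD8 T cells, against 0.744 to 20.1 on the other arrays, at least 37.3-fold (log2 ratio 5.22 ± 0.13, adjusted p = 4.43e-09), and its 4 probe sets were all called. Tdrp stood at 606 and 663 against 0.988 to 17.6, Klk8, a serine protease, at 1406 and 1445 against 10.7 to 92.7, and Lypd6b at 294 and 352 against 1.29 to 21.8. Cxcr6, a chemokine receptor of activated and tissue T cells, had 489 and 501, and no other array reached 20 (log2 ratio 4.63 ± 0.12, at least 24.7-fold). Slfn1, a Schlafen family gene of resting lymphocytes, had 703 and 758 in CD8 T cells and 99.4 in B cell replicate 2, while the remaining 10 arrays were below 11 (log2 ratio 4.42 ± 0.55, adjusted p = 0.000567).

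The list of the T cell receptor complex and its coreceptors also holds accessory receptors such as Cd5 and Cd6. Of its genes, 10 were tested and 7 were called highest, against 2.49% of all genes. Their median log2 difference was 4.99 to pDCs, 5.26 to CD8α cDCs, 6.22 to CD11b cDCs, 4.67 to NK cells and 5.22 to B cells, where the medians of all genes lay between -0.05 and 0. Cd3d had 2752 and 3281 on the CD8 T cell arrays, against 121 and 158 in NK cells and at most 29.8 on any other array. Its log2 ratio to NK cells was 4.44 ± 0.22 (adjusted p = 3.99e-07). Cd3g reached 2657 and 2470 in CD8 T cells and 75.9 and 102 in NK cells, and B cell replicate 1 stood at 52.7, with the remaining arrays below 13 (log2 ratio 4.86 ± 0.39). Cd3e had 562 and 625, against 26.7 and 17.4 in NK cells and at most 18.0 elsewhere (log2 ratio 4.68 ± 0.17, adjusted p = 2.66e-08). NK cells were thus the next population for all 3 CD3 chains, at a distance of more than 20-fold.

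The 3 CD3 genes lie side by side on chromosome 9, Cd3g and Cd3d with starts 1355 bases apart on opposite strands and Cd3e with its start 27825 bases from that of Cd3d. The 250 bases before each start are shown because the 3 genes moved together (RefSeq, GRCm38.p6, 5′ to 3′ on the strand of the gene). They are chr9:44980432-44980681 on the minus strand, chr9:44981536-44981785 on the plus strand and chr9:45009612-45009861 on the minus strand. Capitals mark matches to the searched motifs.
Cd3g: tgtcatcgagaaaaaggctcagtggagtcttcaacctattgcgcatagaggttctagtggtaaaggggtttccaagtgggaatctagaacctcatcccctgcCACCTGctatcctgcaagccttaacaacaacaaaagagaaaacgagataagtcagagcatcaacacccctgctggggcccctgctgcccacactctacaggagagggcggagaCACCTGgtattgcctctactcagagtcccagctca
Cd3d: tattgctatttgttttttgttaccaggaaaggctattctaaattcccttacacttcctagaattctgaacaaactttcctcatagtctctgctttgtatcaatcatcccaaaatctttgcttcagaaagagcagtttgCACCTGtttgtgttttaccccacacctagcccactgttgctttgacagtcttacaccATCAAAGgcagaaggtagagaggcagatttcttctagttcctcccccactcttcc
Cd3e: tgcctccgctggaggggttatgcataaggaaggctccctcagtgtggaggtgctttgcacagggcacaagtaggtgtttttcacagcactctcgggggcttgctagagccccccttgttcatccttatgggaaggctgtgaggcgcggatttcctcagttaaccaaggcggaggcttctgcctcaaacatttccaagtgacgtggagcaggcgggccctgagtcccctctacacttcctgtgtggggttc
The motifs, searched on both strands, were CTTTGAT or CTTTGAA (the core bound by TCF and LEF factors), TGTGGTT (RUNX), CCGGAAG (ETS), GAGGAAG (of the PU.1 kind) and CAGGTG (an E-box, read CACCTG on the other strand). The Cd3g window held 2 E-boxes, the Cd3d window an E-box and a TCF/LEF match, and the Cd3e window none of these letters. Over all windows of this length, 17.2% of 32851 held the E-box and 7.48% the TCF/LEF core. Among the 227 windows of the genes called highest (181 of 234 genes matched) the shares were 18.9 and 4.85%, and among the 9840 of all tested genes 15.1 and 5.14%. The RUNX letters stood in 3.08% of the windows of the genes called highest and 3.22% of the tested ones, the ETS letters in 10.1 and 14.7%, and the PU.1 kind in 11.5 and 11%. A match is a description of the sequence and not a binding site.

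**Figure D2:**
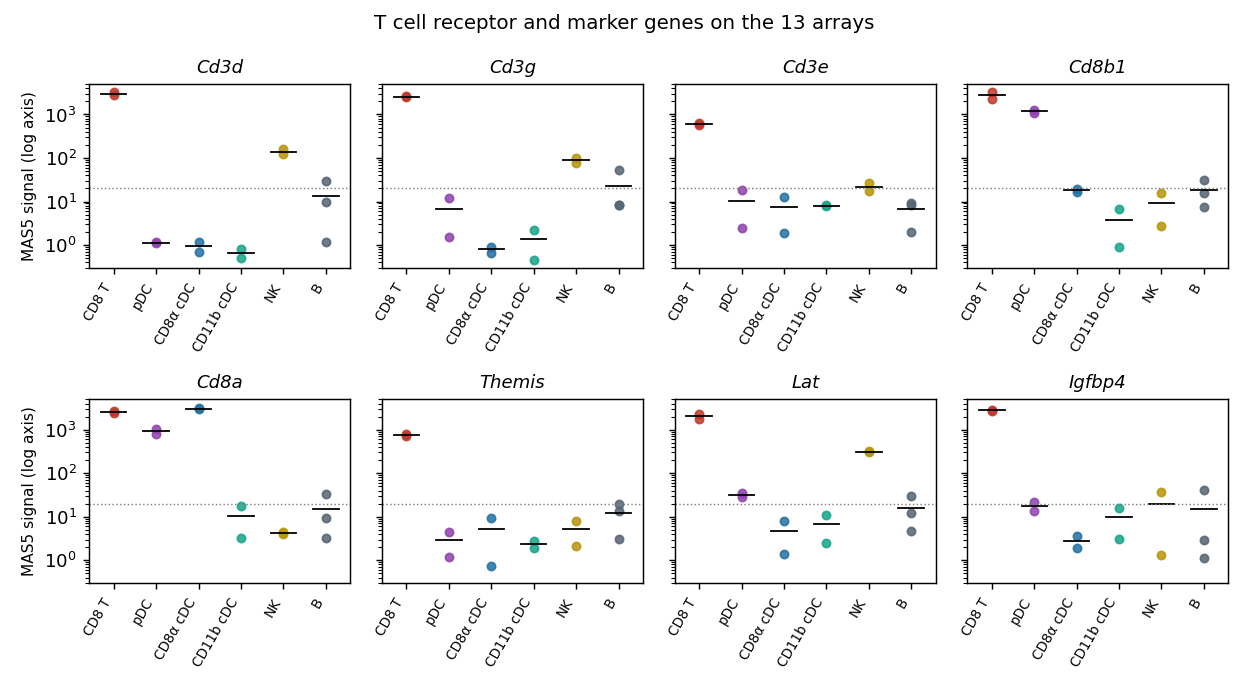
MAS5 signals (log axis) on each of the 13 arrays for 6 genes of the T cell receptor and its signalling chain, Themis and Igfbp4; points are arrays, bars are population means and the dotted line is the floor of 20. The CD8 T cell points lie above all others in each panel but that of Cd8a, where the CD8α cDC points are above them.

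The remaining genes of the receptor complex list divided into those that CD8 T cells had alone and those they shared. Cd6, a scavenger-type receptor that tunes T cell activation, had 493 and 511 in CD8 T cells and at most 15.7 elsewhere, at least 25.1-fold. Cd5, a related inhibitory receptor, had 805 and 1306, with CD11b cDCs next at 158 and 147 (log2 ratio 2.75 ± 0.32, adjusted p = 0.000397). Trat1, an adaptor that stabilises the receptor at the surface, had 252 and 204 and at most 41.4 elsewhere (log2 ratio 2.98 ± 0.27). Cd8b1, the β chain of the coreceptor, had 2324 and 3201 in CD8 T cells, against 1295 and 1088 in pDCs and at most 31.7 on any other array. Its ratio to pDCs was 1.20 ± 0.24 (adjusted p = 0.0159), and the call was lost without either pDC array (1.33 without replicate 1 and 1.07 without replicate 2), without CD8 T cell replicate 2 (0.97) and when the prefix of the sample names was added to the model (0.87). The prefix varied within a population only in B cells, between replicate 1 and replicates 2 and 3. These also differed in mouse number and recorded RNA amount. A call lost with the prefix term therefore cannot show a prefix effect in CD8 T cells. Cd8a, the α chain, was not called, with 2400 and 2629 in CD8 T cells, 3087 and 2916 in CD8α cDCs and 781 and 1047 in pDCs. Cd247, the CD3 ζ chain, had 887 and 1100 in CD8 T cells and 552 and 793 in NK cells, and missed the call for the highest genes (adjusted p = 0.189). Cd2, an adhesion receptor, had 2073 and 2460, against 2434 and 3638 in NK cells.

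Probe sets named for variable segments of the receptor were also among the genes called highest. Their assignment to a particular segment is uncertain. Those of Trav9d-3 and Trbv1 end in _x_at and can hybridise to related transcripts. Trav9d-3 had 2640 and 2891 in CD8 T cells and 5.54 to 88.7 on the other arrays (log2 ratio 6.04 ± 0.61), and Trav12n-2 had 749 and 518 against 1.06 to 43.7 (4.40 ± 0.32). Trbv1 had 6236 and 6688 in CD8 T cells but also 2021 and 2300 in NK cells, with at most 138 elsewhere, and was not called (log2 ratio 1.58, adjusted p = 0.230). Thy1, a surface glycoprotein of mouse T cells, was called with 3320 and 2949, against 2012 and 1360 in NK cells and at most 57.4 elsewhere. Its ratio of 0.92 ± 0.22 (adjusted p = 0.0378) lost the call without any of 8 arrays, among them each CD8 T cell array (0.83 and 1.00).

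Of 19 genes of T cell receptor signalling tested, 9 were called highest and none lowest, against 2.49 and 1.11% of all genes. Lat, the adaptor that is phosphorylated first and collects the other molecules, had 1797 and 2342 in CD8 T cells and 312 and 317 in NK cells. Every other array was at 35.3 or lower, and the log2 ratio to NK cells was 2.71 ± 0.23 (adjusted p = 2.54e-05). Plcg1, the phospholipase that LAT recruits, had 699 and 748 against 25.6 and 35.2 in NK cells and 136 to 211 elsewhere (log2 ratio to CD11b cDCs 1.94 ± 0.20, adjusted p = 0.000123). Camk4, a calcium-dependent kinase, had 308 and 394 and at most 40.5 elsewhere (3.61 ± 0.27). Cd28, the costimulatory receptor, had 863 and 1120, with NK cells next at 246 and 248 (1.99 ± 0.31), a call lost with the sample name prefix in the model (1.79). Sit1, an inhibitory adaptor, had 287 and 307, against 122 and 131 in pDCs and 51.3 to 81.7 in B cells (1.24 ± 0.20). Ctla4, the inhibitory counterpart of CD28, was called at low signals of 55.2 and 106 (ratio to CD8α cDCs 1.15 ± 0.28, adjusted p = 0.0408), and the call was lost when any of 9 arrays was left out, CD8 T cell replicate 2 giving 0.68. Ubash3a, a suppressor of receptor signalling (182 and 289), and Dgka, a diacylglycerol kinase (3112 and 3378), were called with ratios of 0.94 and 0.95, and Themis, given above, completed the 9.

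The 10 signalling genes outside these 9 included 3 that were higher in NK cells. Against NK cells 10 of the 19 were higher in CD8 T cells and 3 lower, with a median log2 difference of 0.93, whereas against B cells 16 were higher and 1 lower with a median of 3.52. The background was 16.6% of all genes higher and 21.5% lower than in NK cells, and 16.9% higher and 18.0% lower than in B cells. Fyn, a Src family kinase, had 1213 and 1414 in CD8 T cells, against 5818 and 5470 in NK cells (log2 difference -2.11 ± 0.47, adjusted p = 0.0052) and 3673 and 3835 in pDCs. Sh2d2a, an adaptor of LCK, had 206 and 260 against 766 and 969 in NK cells (-1.90 ± 0.19). Nfatc1, a calcium-regulated transcription factor, had 537 and 599 against 1053 and 1081 in NK cells (-0.91 ± 0.17). Zap70, the kinase that binds the CD3 chains, had 454 and 429 in CD8 T cells and 445 and 614 in NK cells (adjusted p = 0.289).

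Among 18 transcription factors of T cells, 4 were called highest, against 2.49% of all genes. Bcl11b, which is needed for T cell identity, had 2883 and 2705 in CD8 T cells, against 155 and 107 in NK cells and at most 32.6 elsewhere (log2 ratio 4.44 ± 0.24, adjusted p = 7.06e-07), and its 4 probe sets were all called. Lef1, a partner of β-catenin in the T lineage, had 1495 and 1386, against 188 and 196 in NK cells and 34.0 to 119 in B cells (2.91 ± 0.45, adjusted p = 0.00264). Tox had 214 and 156 and at most 43.3 elsewhere (2.53 ± 0.26), though only 1 of its 2 probe sets was called. Ets1 had 4022 and 3838, with B cells next at 1289, 1888 and 1924 (1.23 ± 0.25, adjusted p = 0.0144). That call was lost without either CD8 T cell array (1.20 and 1.27), and 2 of the 4 Ets1 probe sets were called. In the Tox and Ets1 probe sets that were not called, CD8 T cells did not have the highest mean.

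Other factors of this list were higher in a neighbouring lymphocyte. Eomes and Tbx21, the T-box factors of killer cells, had 913 and 733 and 480 and 418 in CD8 T cells, but 4086 and 3742 and 3357 and 2884 in NK cells. The log2 differences to NK cells were -2.26 ± 0.15 and -2.80 ± 0.25. Gata3 had 134 and 145 in CD8 T cells, 297 and 331 in NK cells and below 15 on the other arrays. Runx1 had 114 and 67.9 in CD8 T cells and was at 463 and 449 in NK cells. Its CD8 T cell mean of 90.8 was below that of every other population, the nearest being CD11b cDCs at 122. It was not called lowest. Bach2 was lower in CD8 T cells (775 and 765) than in B cells (1201 to 3167), as was Id3 (285 and 300 in CD8 T cells, with B cells at 541 to 803). Zbtb7b, the factor of the CD4 lineage, was at 36.9 and 28.8. Over the 18 factors, 7 were higher and 6 lower in CD8 T than in NK cells (16.6 and 21.5% of all genes), with a median difference of 0.00. Against B cells 10 were higher and 4 lower (16.9 and 18% of all genes).

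Most listed genes of naive T cell homing and quiescence were higher in CD8 T cells than in NK cells. Like the other gene lists, this list was written with earlier results of these data known, so its shares describe the list and test nothing. Of the 17 members of the list tested 8 were called highest, and against NK cells 14 were higher and none lower (16.6 and 21.5% of all genes), with a median log2 difference of 3.79 (all genes -0.05). Il7r, the receptor for the survival cytokine interleukin 7, had 4820 and 4475 in CD8 T cells, against 571 and 493 in NK cells, 50.1 to 67.9 in B cells and 2113 and 3020 in pDCs. Its ratio to pDCs of 0.88 ± 0.21 (adjusted p = 0.0414) lost the call when any of 10 arrays was left out, and was 0.82 and 0.93 without CD8 T cell replicates 1 and 2. Pdk1, a kinase that restrains pyruvate oxidation, had 1560 and 1709, against 140 to 271 in B cells and 72.1 to 195 on the other arrays (log2 ratio 3.12 ± 0.39, adjusted p = 0.00069). Klf3, a Krüppel-like repressor, had 2717 and 2105, with NK cells next at 750 and 944 (1.51 ± 0.25), and lost the call without CD8 T cell replicate 1 (1.32) and with the sample name prefix in the model (0.98). Sidt1, a membrane protein linked to RNA transport, had 692 and 696, against 157 and 297 in NK cells (1.68 ± 0.30), a call lost without NK cell replicate 1 (1.22) or either CD8 T cell array (1.69 and 1.68). With the prefix in the model the calls of Sidt1 (1.77), Il7r (1.20), Ctla4 (1.25) and Thy1 (0.77) were lost too. S1pr1, the receptor by which lymphocytes leave lymphoid organs, had 791 and 942, against 89.5 and 110 in NK cells and 292 to 558 in B cells (1.25). Ccr7, which guides naive T cells into T zones, had 1247 and 1713 in CD8 T cells and 3.47 and 27.4 in NK cells, but B cells reached 2001 to 2309, so it was not called. Ccr9, the gut homing receptor, had 1561 and 1260 in CD8 T cells, 4877 and 5046 in pDCs and at most 28.2 in NK and B cells.

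**Figure D3:**
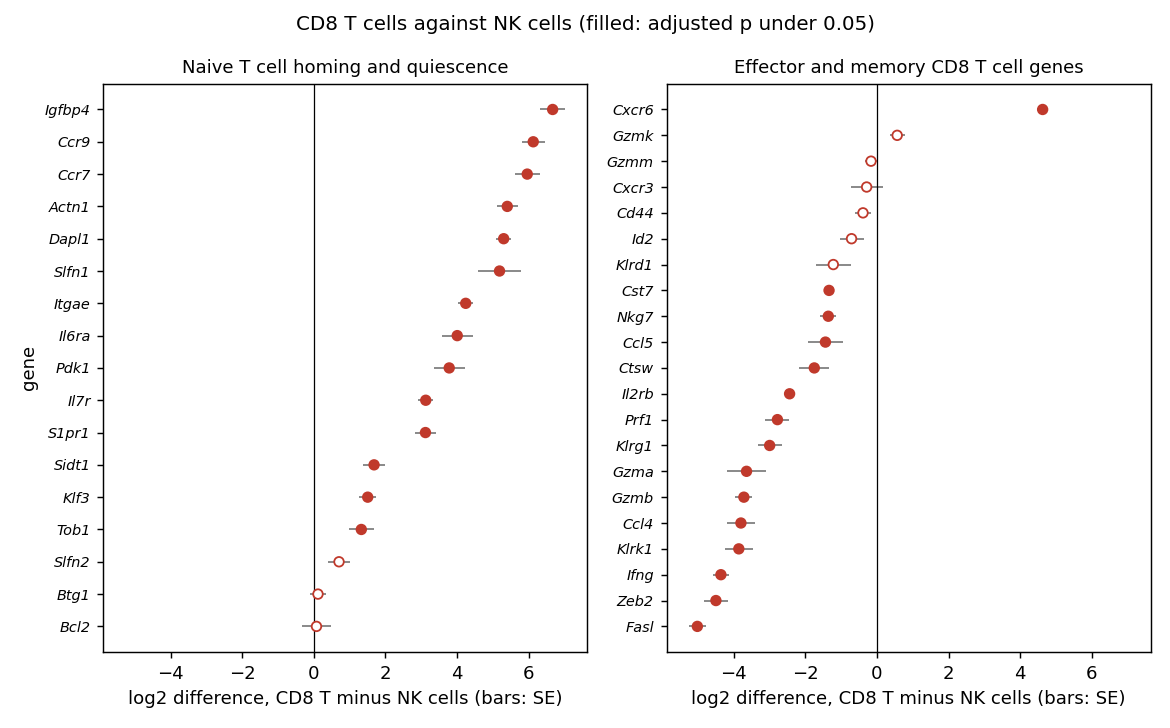
Log2 difference of CD8 T cells minus NK cells (points, with SE bars; filled where limma's adjusted p was under 0.05) for the 17 naive T cell genes and the 21 effector and memory genes tested. The 14 filled points of the naive list lie to the right of 0, while 14 of the 15 filled points of the effector list lie to the left and Cxcr6 to the right.

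The effector and memory list ran the other way. Of 21 genes tested, only Cxcr6 was called highest, where 2.49% of all genes were. Against NK cells 1 was higher and 14 lower (16.6 and 21.5% of all genes), with a median log2 difference of -1.75. Fasl, a death ligand, had 108 and 66.3 in CD8 T cells, against 2821 and 2670 in NK cells (-5.02 ± 0.25), and Ifng, the interferon of killer cells, had 122 and 196 against 2717 and 3721 (-4.36 ± 0.23, adjusted p = 2.67e-07). Gzma, a granule protease, differed between the CD8 T cell mice with 2303 and 954, and was at 18718 and 18346 in NK cells (-3.64 ± 0.54, adjusted p = 0.000498). Ccl4, a chemokine, had 103 and 129 against 1314 and 1978 (-3.80 ± 0.39), and Klrk1, the NKG2D receptor, 136 and 58.3 against 1009 and 1654 (-3.86 ± 0.39). Zeb2, a factor of terminal effector cells, was near the floor with 39.1 and 41.1, against 971 and 847 in NK cells. Other genes of the list were at high signals in both populations. Nkg7, a granule membrane protein, had 2913 and 3137 in CD8 T cells and 7811 and 7707 in NK cells (-1.36 ± 0.22), and Ctsw, a protease of cytotoxic cells, 2185 and 2543 against 7785 and 8085 (-1.75 ± 0.42). The chemokine Ccl5 had 5020 and 4238 against 12576 and 12443 (-1.44 ± 0.49, adjusted p = 0.0391). Against B cells 18 of the 21 were higher and 1 lower (16.9 and 18.0% of all genes), with a median of 3.58. The NK cell arrays are those with the high GAPDH 3' to 5' ratios (23.9 and 11.2), whose part in these differences was not tested.

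Of 6 receptor genes of the common γ chain cytokines tested, only Il7r was called highest, where 2.49% of all genes were. Il2rb, the β chain shared by the interleukin 2 and 15 receptors, had 262 and 218 in CD8 T cells, 1374 and 1228 in NK cells and at most 12.3 elsewhere. Il4ra had 205 and 261, against 332 to 418 in B cells, and Il21r had 230 and 305, against 294 to 390 in B cells. The Gimap genes encode GTPases that support lymphocyte survival. All 8 were higher than in pDCs, CD8α cDCs and CD11b cDCs, with median log2 differences of 4.69, 5.90 and 5.86 (21.3, 26.4 and 22.8% of all genes were higher). None was called highest. Gimap4 had 5385 and 5318 in CD8 T cells, against 10882 and 10661 in NK cells (-1.01 ± 0.27), 2681 to 4996 in B cells and at most 53.9 in DCs. Gimap3 had 1145 and 1563, against 1551 and 1396 in NK cells and 619 to 745 in B cells (log2 difference to B cells 0.99 ± 0.17). Against NK cells 2 of the 8 were lower, where 21.5% of all genes were, and against B cells 1 was higher, where 16.9% were.

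The genes called lowest included key molecules of signalling through SYK. Syk, the kinase of B cell and Fc receptors and a relative of ZAP70, had 48.2 and 16.1 in CD8 T cells, against 487 and 420 in CD8α cDCs, 1232 to 2038 in the other DC and NK cell arrays and 2496, 2770 and 3806 in B cells. The log2 ratio to CD8α cDCs was -3.86 ± 0.34 (adjusted p = 0.000159). CD8 T cells had the lowest mean in 3 of the 4 Syk probe sets, and 2 were called. Plcg2, the phospholipase downstream of SYK, had 92.9 and 57.0 in CD8 T cells, against 1354 to 2157 on the 11 others (-4.23 ± 0.24 to NK cells, 18.8-fold, adjusted p = 4.59e-06). Plcg1 and Plcg2 thus took opposite ends, the first highest and the second lowest in CD8 T cells. Pik3ap1, the adaptor BCAP that links B cell receptors to PI3 kinase, had 36.7 and 26.2, against 250 to 712 elsewhere (-3.18 ± 0.20, 9.03-fold). Of the 12 genes of this list tested, these 3 were called lowest, against 1.11% of all genes, and its median difference was -1.90 to NK cells and -5.23 to B cells. The adaptors behind activating receptors were low too, but not in CD8 T cells alone. Tyrobp had 37.2 and 12.8 in CD8 T cells, against 8649 and 8727 in NK cells, 2965 to 7833 in DCs and 61.1 to 335 in B cells (adjusted p = 0.059 for the lowest genes). Fcer1g had 21.5 and 14.1 in CD8 T cells and 11.5 to 17.5 in B cells, against 3456 and 4166 in NK cells.

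The windows before the starts of Syk (the first of 2 starts in the table) and Plcg2 are shown with the window of Igfbp4, the gene at the other extreme. They are chr13:52583187-52583436, chr8:117498025-117498274 and chr11:99040994-99041243, each on the plus strand of GRCm38.p6 from RefSeq, with motif matches in capitals.
Syk: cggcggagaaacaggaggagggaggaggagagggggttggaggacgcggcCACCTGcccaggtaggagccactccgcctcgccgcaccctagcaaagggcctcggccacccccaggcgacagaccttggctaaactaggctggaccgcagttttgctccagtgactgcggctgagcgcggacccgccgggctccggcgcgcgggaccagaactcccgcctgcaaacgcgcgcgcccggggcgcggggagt
Plcg2: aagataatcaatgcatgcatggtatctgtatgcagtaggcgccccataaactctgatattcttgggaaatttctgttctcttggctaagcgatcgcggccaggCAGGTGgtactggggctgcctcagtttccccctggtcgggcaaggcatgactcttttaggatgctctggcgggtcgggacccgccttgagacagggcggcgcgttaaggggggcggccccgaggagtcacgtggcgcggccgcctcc
Igfbp4: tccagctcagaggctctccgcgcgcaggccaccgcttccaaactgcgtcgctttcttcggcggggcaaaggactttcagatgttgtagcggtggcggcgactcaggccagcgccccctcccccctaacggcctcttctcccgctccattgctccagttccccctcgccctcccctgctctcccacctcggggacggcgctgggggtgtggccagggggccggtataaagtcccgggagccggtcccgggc
Syk and Plcg2 each held 1 E-box, and the Igfbp4 window, rich in G and C, held none of the searched letters. Among the 119 windows of the genes called lowest (84 of 104 genes matched), 13.4% held the E-box, 16.8% the PU.1 kind, 8.40% the ETS letters, 5.04% the TCF/LEF core and 2.52% the RUNX letters. Among all tested genes the E-box and the PU.1 kind stood in 15.1 and 11%.

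**Figure D4:**
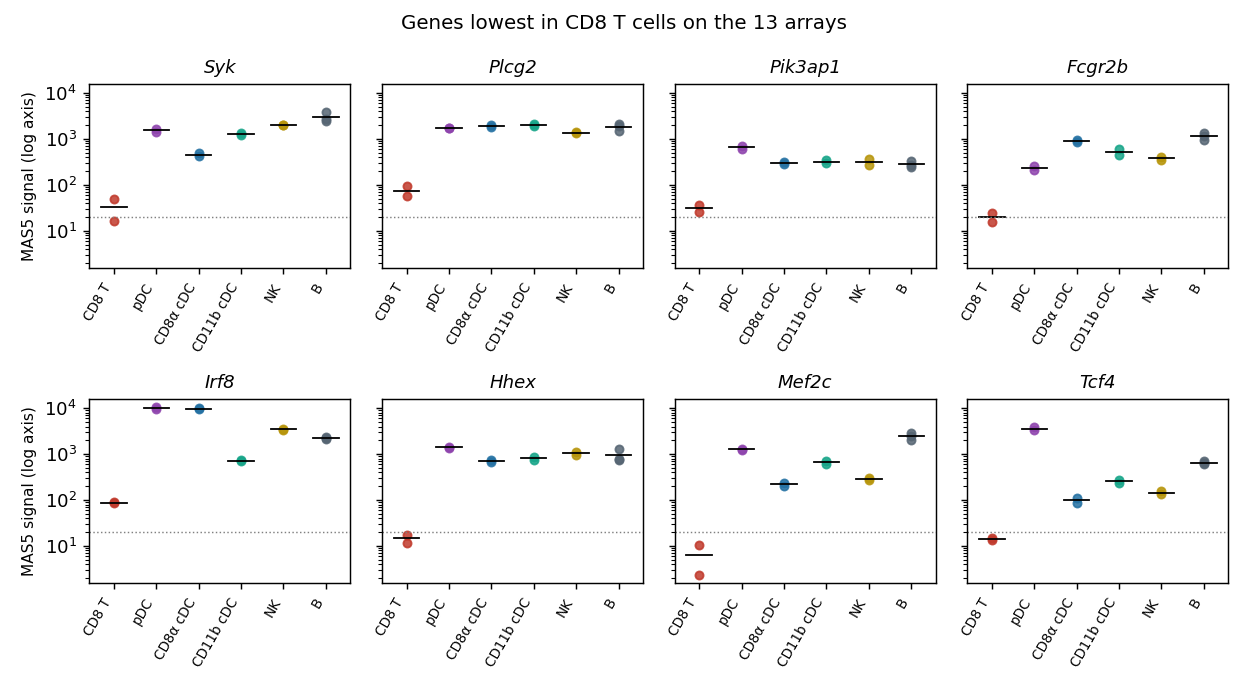
MAS5 signals (log axis) on each of the 13 arrays for 8 genes called lowest in CD8 T cells; points are arrays, bars are population means and the dotted line is the floor of 20. Every CD8 T cell point lies below all points of the other 5 populations, and for Hhex, Mef2c and Tcf4 both are under the floor.

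Transcription factors of other leukocytes were also among the genes called lowest. Hhex, a homeobox factor of B cell and DC development, had 17.8 and 11.8 in CD8 T cells, against 670 to 1454 on the 11 others, at least 35.0-fold below the next population (-5.13 ± 0.25 to CD8α cDCs, adjusted p = 1.8e-06). Irf8, a factor of DCs and B cells, had 88.6 and 86.5, against 708 and 747 in CD11b cDCs, 2156 to 3479 in B and NK cells and 9575 to 10515 in the other DCs (-3.05 ± 0.14 to CD11b cDCs). Mef2c had 10.3 and 2.35, against 199 to 2954 elsewhere (-3.44 ± 0.20), and Tcf4, the E protein of pDCs, 14.7 and 13.8 against 84.6 to 3832 (-2.28 ± 0.18). Of these, 3 of 5 probe sets each were called for Mef2c and Tcf4, and both of Irf8. CD8 T cells had the lowest mean in all 5 sets of Mef2c and in 4 of Tcf4. The list of such factors had 19 tested members, of which Irf8 and Tcf4 were called lowest, where 1.11% of all genes were. Other members were as low in a neighbour as in CD8 T cells, such as Spib with 23.4 and 16.4 in CD8 T cells and 30.8 and 22.5 in NK cells.

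The remaining genes called lowest with a large ratio were of mixed function. Fcgr2b, the inhibitory IgG receptor, had 24.4 and 15.6 in CD8 T cells, against 213 and 260 in pDCs, 351 and 404 in NK cells and 441 to 1333 elsewhere (-3.41 ± 0.22), by a probe set that can match related receptors and with 2 of its 4 probe sets called. With the most specific Fcgr2b probe set the ratio was -1.25 and the call was lost. Napsa, an aspartic protease, had 23.2 and 15.8, against 224 and 254 in NK cells and 1561 to 4144 elsewhere (-3.47 ± 0.27). Aldh2, the mitochondrial aldehyde dehydrogenase, had 17.2 and 2.25 against 208 to 1270 (-3.48 ± 0.34). Vcl, the adhesion protein vinculin, had 41.7 and 17.8 against 148 to 741 (-2.64 ± 0.31), and Gadd45b, a stress response gene, 77.9 and 120 against 419 to 1463 (-2.44 ± 0.28). Pkig, an inhibitor of protein kinase A, had 12.8 and 9.50 against 125 to 1496. Dcxr, a sugar reductase, had 18.6 and 12.8, with B cell replicates 2 and 3 next at 81.0 and 79.9 (-2.46 ± 0.38, adjusted p = 0.00542), and lost the call without either CD8 T cell array, at the same ratio. Unc93b1, the chaperone of endosomal Toll-like receptors, was the only 1 of 15 innate sensor genes called lowest, where 1.11% of all genes were. It had 45.4 and 31.9 against 115 and 128 in NK cells (-1.67 ± 0.34, adjusted p = 0.0274). The call was lost without either CD8 T cell array (-1.93 and -1.42) and without any of 6 others, and with the sample name prefix in the model the ratio was -0.77 and the call was lost as well.

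Genes of antigen presentation were low in CD8 T cells and in NK cells alike, and none was called lowest. Fewer cells with a transcript and less RNA per cell cannot be told apart in such bulk samples. Of 9 MHC class II presentation genes, 8 were lower than in pDCs and all 9 lower than in CD8α cDCs, in CD11b cDCs and in B cells, with median log2 differences of -5.32, -5.15, -6.47 and -6.45. The background was 22.7% of all genes lower than in pDCs, 27.7% lower than in CD8α cDCs, 25.4% lower than in CD11b cDCs and 18% lower than in B cells. H2-Aa, an MHC class II chain, had 78.5 and 15.1 in CD8 T cells, 93.6 and 72.2 in NK cells, and 8534 to 15156 on the other arrays. Cd74, the invariant chain, had 121 and 92.4 in CD8 T cells, against 36.8 and 59.5 in NK cells. It was higher in CD8 T cells by a log2 difference of 1.18 ± 0.23 (adjusted p = 0.00285). Against NK cells 4 of the 9 were higher and none lower (16.6 and 21.5% of all genes). Of 18 lysosomal genes, 14 were lower than in pDCs, 13 lower than in CD8α cDCs and 15 lower than in CD11b cDCs. Against B cells 8 were lower and against NK cells 3, where 18 and 21.5% of all genes were. Ctsh, an aminopeptidase of the lysosome, was at 20.1 and 3.51 in CD8 T cells, at 1.71 and 8.34 in NK cells and at 1456 or higher on every other array. Ctsd went against the list, with 1206 and 1391 in CD8 T cells, against 627 and 450 in pDCs, 94.2 and 87.1 in CD8α cDCs, 353 and 330 in CD11b cDCs and 120 to 227 in B cells, though NK cells reached 2714 and 3026. Of the 8 costimulatory ligands, all were lower than in CD11b cDCs and 5 lower than in B cells, among them Cd83 with 43.1 and 29.1 in CD8 T cells and 3909 to 4682 in B cells.

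The 5 comparisons of CD8 T cells with another population share the CD8 T cell arrays, so their calls are not independent. In two-sided limma tests 21.3% of the 9391 genes were higher and 22.7% lower than in pDCs, 26.4 and 27.7% in the case of CD8α cDCs, 22.8 and 25.4% for CD11b cDCs, 16.6 and 21.5% for NK cells and 16.9 and 18% for B cells. Against pDCs the largest difference upwards was Trbv1 (8.34) and downwards D13Ertd608e (13 and 9.99 in CD8 T cells, 7504 and 7267 in pDCs). Ms4a4b, a tetraspan gene of T and NK cells, had 7254 and 7802 in CD8 T cells, 11746 and 10371 in NK cells and 18.3 and 20.5 in CD8α cDCs, a log2 difference of 8.54 ± 0.24 from the last. Mpeg1, a pore-forming protein of phagocytes, had 25.3 and 21.8 in CD8 T cells against 8569 and 9618 in CD8α cDCs (-8.59 ± 0.29). Against CD11b cDCs the lowest was Tgm2, a transglutaminase, with 15.7 and 4.73 against 5903 and 5776 (-8.19 ± 0.27). Against NK cells the extremes were Cd8b1 (7.09 ± 0.24) and Klra8, a Ly49 receptor gene (16.7 and 15.6 in CD8 T cells, 10778 and 9236 in NK cells, -8.96 ± 0.14). Against B cells they were Thy1 (7.19 ± 0.20) and H2-Aa (-8.38 ± 0.43), followed by Scd1, a fatty acid desaturase, with 24.0 and 21.2 against 3856 to 6487 (-7.80 ± 0.26). CD8 T cells and B cell replicates 2 and 3 carried the same sample name prefix. Against these B cells alone, without replicate 1, 4037 genes differed, compared with 3269 with all 3, and the counts of the other comparisons were higher too, such as 4776 against 4132 for pDCs and 4256 against 3583 for NK cells.

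**Figure D5:**
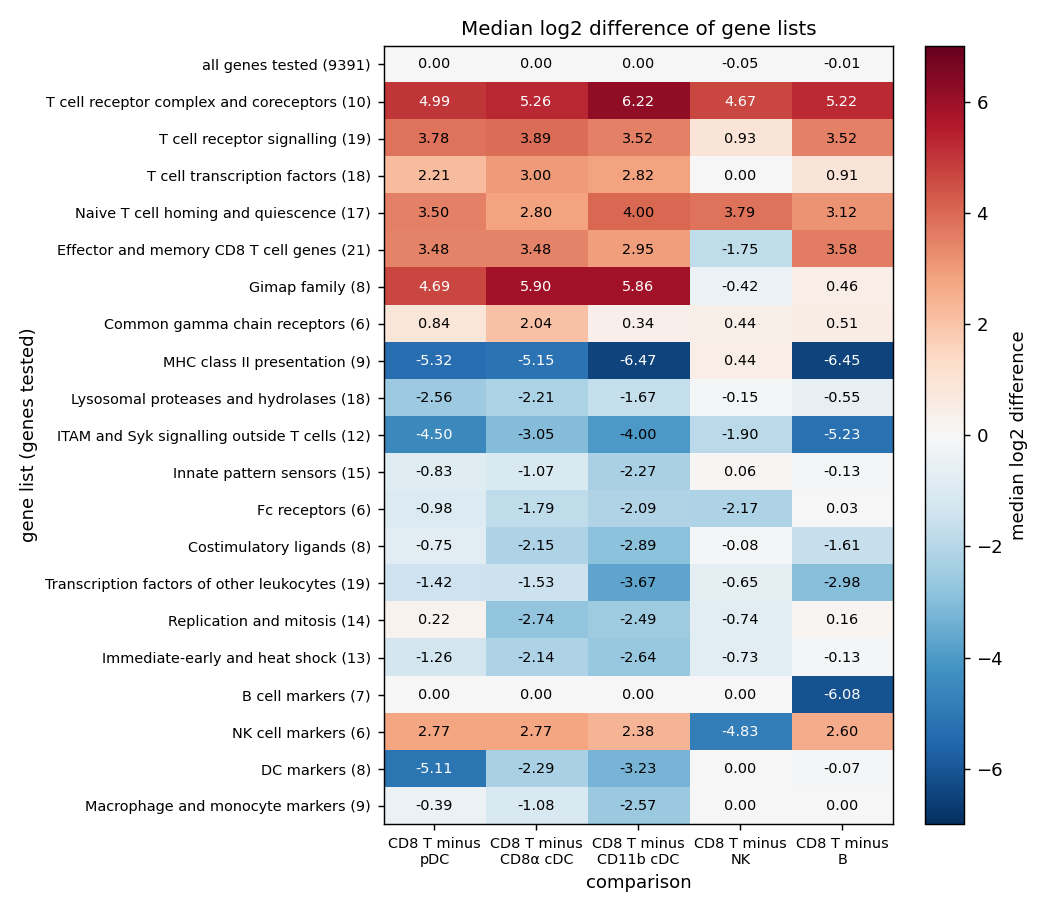
Median log2 difference of each gene list (rows, with the number of genes tested) for CD8 T cells minus each of the 5 other populations (columns); red is higher and blue lower in CD8 T cells, and the first row gives all 9391 genes. The row of the T cell receptor complex is above 4.6 in every column, the effector row is positive except against NK cells (-1.75), and the MHC class II row is below -5 except against NK cells (0.44).

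Genes of dividing cells were lower in CD8 T cells than in both cDC subsets. Of 14 replication and mitosis genes, all 14 were lower than in CD8α cDCs and in CD11b cDCs, with median log2 differences of -2.74 and -2.49 (27.7 and 25.4% of all genes were lower). Against NK cells 6 were lower and 1 higher (21.5 and 16.6% of all genes). Against pDCs 4 of 14 were higher, where 21.3% of all genes were, and none lower. Against B cells 2 were higher and 1 lower (16.9 and 18% of all genes). Mki67, a protein of cycling cells, had 282 and 134 in CD8 T cells, 1927 and 1767 in CD8α cDCs, 1391 and 1438 in CD11b cDCs and 414 and 545 in NK cells. Of 13 immediate-early and heat shock genes, which respond to handling of cells, 7 were lower than in each cDC subset (27.7% of all genes for CD8α cDCs and 25.4% for CD11b cDCs) and 1 was lower than in B cells (18.0%). Against pDCs 3 were lower and 2 higher (22.7 and 21.3% of all genes), and none was called highest or lowest. Hspa1b, a heat shock protein, differed between the CD8 T cell arrays themselves with 28.5 and 706, and Hspa1a with 8.22 and 125.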

How the data were processed

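Mouse spleen leukocytes were profiled on 13 Affymetrix arrays. The deposited intensity of each probe set is the MAS5 signal, which the authors scaled to a target of 100 per array. The GAPDH ratio was taken from these signals. The scanner's records were used for scan day, chip lot and a recorded RNA amount. That amount was 50 ng for B cell replicates 2 and 3, 89 ng for pDC replicate 2, not given for the CD8 T cell arrays and 100 ng for the rest, whereas the sample labels gave 100 ng throughout. Arrays were grouped by sample title. Signals under 20 were set to 20 and log2-transformed. Probe sets of 1 gene that reached 50 in all replicates of a population were kept (15650 of 18207 passing sets had 1 gene), and the set with the highest mean stood for the gene, giving 9391 genes. They were fitted with limma 3.58.1 in R 4.3.3 with 6 population means, 7 residual degrees of freedom and Benjamini-Hochberg adjustment over all genes. For a gene highest or lowest, the largest of 5 one-sided p-values was adjusted. The procedure was tested on simulated data, with each gene's mean above the floor and no differences among the other populations. The simulation therefore did not cover the floor or such differences.

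Genes were named by rule: the 15 called highest and 15 lowest with the largest ratio, up to 6 members of each gene list and those that went against their list, the markers, and the 3 largest differences each way in each comparison. Not every gene so named is printed. Members and lists were chosen with earlier results of these data known, and Ccr7, Cd2, Cd247, Dgka, Fasl, Ifng, S1pr1, Ubash3a and Zap70 were added after their values were seen. P-values measure the spread between arrays after the floor, and the number of arrays limits the precision. Where all other arrays were below the floor, as for Cxcr6 and Cd6, their spread was removed. The SE and p-value of such genes then rest on the CD8 T cell arrays and limma's shared spread, and may be too small. Floors, filters, scalings, probe set choices, a sample name term and leaving out arrays were tried as alternatives. Leaving out both NK cell arrays, and the probe sets ending in _x_at or _s_at, were chosen after seeing the data.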

Additional observations from a re-analysis of the deposited data

How the results depend on the processing

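The main counts were 234 genes highest and 104 lowest in CD8 T cells. With a floor of 10, 141 genes were called highest, and with no floor 42, all among the 234. Of the 33 genes named as highest, Uty included, 24 lost the call without a floor, and of the 17 named as lowest none did. With every probe set tested as its own feature (15650), 474 were called highest (393 genes), and 6620 differed from pDCs, 8299 from CD8α cDCs, 7346 from CD11b cDCs, 5716 from NK cells and 5053 from B cells. Without both NK cell arrays 476 were called highest and 326 lowest. Leaving out 1 array gave 139 to 266 genes highest and 53 to 141 lowest (69 without CD11b cDC replicate 2), with 3075 to 4776 differing from pDCs, 4009 to 5640 from CD8α cDCs, 3381 to 5159 from CD11b cDCs, 2388 to 4256 from NK cells and 2066 to 4037 from B cells. The lowest counts for NK and B cells came without CD8 T cell replicate 1. With the sample name prefix as a term, 240 were called highest, of which 138 were among the 234, and 153 lowest, of which 64 were among the 104. That term was estimated from the B cell arrays alone, the only population with both prefixes. Quantile normalisation gave 200 and 133. A few named differences changed sign: Foxp1 to NK cells (-0.0076 with the most specific probe set and without B cell replicate 1 or 3, and up to 0.75 without another array), Mcm3 to B cells (-0.37 with that probe set), Sulf2 to pDCs (0.42 with that probe set and without either NK cell array, and down to -2.49 without another array), Fyn to CD11b cDCs (-0.46) and Grn to NK cells (0.17), the last 2 with the prefix term. The causes were not tested. Deviations of same-numbered arrays of different populations were weakly correlated (r from -0.199 to 0.184 over 15 pairs, 4 above 0.1). Such weak correlations cannot exclude a pairing. The paper sorted the DC and NK cell duplicates in 2 independent experiments, and whether the replicate numbers follow these was not settled. With a replicate block 186 genes were called highest and 84 lowest, and 4059 differed from pDCs, 4995 from CD8α cDCs, 4435 from CD11b cDCs, 3465 from NK cells and 2766 from B cells. Signals near background limit the low genes.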
